A study of Mus musculus with 10 samples.

Results

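The 31 genes described here carry glucose through glycolysis or belong to the response to low oxygen. They were picked out of the table by gene symbol and comprised 15 genes of glucose uptake, the glycolytic steps and lactate export, 3 control points of glycolytic flux, 3 genes of oxygen sensing and 10 hypoxia targets outside glycolysis. All 31 were found among the 45777 genes of the deposited table, and 31 of 31 were among the 21523 genes that passed the filter on low counts. Bulk RNA was sequenced from 10 MC38 tumors, which come from a mouse colon carcinoma line grown under the skin of the flank in female mice of strain C57BL/6, wild type in the labels. The groups were the combination of YH29407 and aPD-1 (3 tumors, replicates 2, 3 and 4), YH29407 alone (3 tumors, replicates 1, 3 and 4), aPD-1 alone (2 tumors, replicates 3 and 4) and control (2 tumors, replicates 3 and 5). YH29407 inhibits IDO1, the enzyme that turns tryptophan into kynurenine, and aPD-1 is an antibody against the T cell checkpoint receptor PD-1. The control tumors are labelled as not treated, whereas the study's methods give them a vehicle. The labels state neither the age of the mice nor the day of sampling, and whether every library is a separate mouse is not written in them, so p-values measure the spread between these libraries.

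Glycolysis splits glucose into pyruvate, which is reduced to lactate when it is not burned in mitochondria, and many tumors run it at a high rate. In oxygenated cells the EGLN prolyl hydroxylases mark HIF-1α, the protein of Hif1a, for destruction. When oxygen is scarce HIF-1α persists, binds the short DNA core ACGTG or GCGTG and raises transcription of glucose transporters, glycolytic enzymes and genes such as Car9, Bnip3 and Vegfa. Egln3 is itself a target of this response.

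The core is shown in 5 promoters because their genes carry the patterns described further on: Car9, Bnip3 and Slc2a1 varied widely between tumors given the same treatment, whereas Higd1a and Ddit4 differed in opposite directions, at a small unadjusted p, between the combination and YH29407. The windows are the 250 bases before the RefSeq start in build GRCm38.p6, written 5′ to 3′ on the gene's strand: Car9 at chr4:43506776-43507025 (+), Bnip3 at chr7:138909507-138909756 (-), Slc2a1 at chr4:119108495-119108744 (+), Higd1a at chr9:121857797-121858046 (-) and Ddit4 at chr10:59951771-59952020 (-). Capitals mark ACGTG or GCGTG, or CACGT or CACGC where the core lies on the other strand.
Car9: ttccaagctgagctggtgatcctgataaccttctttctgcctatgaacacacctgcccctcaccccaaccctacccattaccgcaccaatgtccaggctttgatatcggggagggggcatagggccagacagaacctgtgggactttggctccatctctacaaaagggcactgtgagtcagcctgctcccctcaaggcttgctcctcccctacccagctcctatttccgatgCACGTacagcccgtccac
Bnip3: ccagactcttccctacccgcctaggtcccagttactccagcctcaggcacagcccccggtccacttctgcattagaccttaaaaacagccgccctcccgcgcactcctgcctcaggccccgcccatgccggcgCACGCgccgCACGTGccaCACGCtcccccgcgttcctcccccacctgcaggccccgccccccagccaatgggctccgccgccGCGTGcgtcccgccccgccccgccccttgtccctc
Slc2a1: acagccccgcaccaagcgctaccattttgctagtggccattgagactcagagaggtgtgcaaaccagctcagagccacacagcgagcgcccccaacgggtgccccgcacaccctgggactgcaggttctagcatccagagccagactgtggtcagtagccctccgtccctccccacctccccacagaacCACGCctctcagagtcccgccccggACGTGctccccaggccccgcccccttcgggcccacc
Higd1a: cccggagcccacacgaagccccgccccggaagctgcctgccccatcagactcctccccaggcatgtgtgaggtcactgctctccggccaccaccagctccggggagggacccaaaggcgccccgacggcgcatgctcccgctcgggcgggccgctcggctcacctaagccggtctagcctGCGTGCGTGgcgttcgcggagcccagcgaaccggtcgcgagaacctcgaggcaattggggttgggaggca
Ddit4: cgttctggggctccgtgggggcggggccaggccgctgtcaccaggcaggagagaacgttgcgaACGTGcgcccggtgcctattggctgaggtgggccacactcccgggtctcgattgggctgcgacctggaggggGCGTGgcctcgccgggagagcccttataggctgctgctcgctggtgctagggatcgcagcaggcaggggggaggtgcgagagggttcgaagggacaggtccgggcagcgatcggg
Car9 had 1 core, 18 bases before its start. Bnip3 had 5, of which those at 108 and 107 bases are one CACGTG palindrome read on both strands. Slc2a1 had 2 (61 and 36 bases before the start), Higd1a had 2 that overlap (70 and 66) and Ddit4 had 2 (187 and 115). Of the 31 genes, 30 matched a RefSeq promoter entry by symbol, and 28 of these (93.3%) held at least 1 core on either strand in at least 1 of their promoters, against 41.5% of all 27025 genes with an entry. The 9 matched hypoxia targets outside glycolysis all held one, and Gpi1 and Tpi1 were the genes without. Base composition moved with this share. The genes' 40 promoters had a median of 16.5 CpG dinucleotides, against 6 over all promoters. Among promoters with at least 16 CpGs, 20 of 21 of the genes' promoters (95.2%) and 68.7% of all 8356 held the core. Among those with fewer, the shares were 13 of 19 (68.4%) and 28.3%. A match is a description of letters and not a site.

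Total counts per library ranged from 56170804 to 76287659, and no library was a copy of another. Combination replicate 4 stood apart. Mitochondrial mRNA took 2.28% of its counts (0.413% to 0.560% in the other 9), pseudogenes took 7.09% (3.04% to 3.70%), and its Spearman correlations with the other libraries had a median of 0.908 (0.961 to 0.974). The labels call the cells colon cells. The 12 colon epithelial markers summed to 4.80 to 17.9 CPM (read counts scaled to library size with the TMM factor of edgeR) with 2 to 4 of them at 0. Of these, Epcam (at most 1.59 CPM), Krt8 (at most 0.462) and Cdx2 (at most 0.0539) were near 0 in every library. They were picked after their values were seen, and other markers of the list held most of each sum. Markers of skin and muscle were high in some libraries. Keratinocyte markers summed to 619.5, 184 and 5.39 CPM in combination replicates 2, 3 and 4 and to 0.614 to 8.77 elsewhere, and skeletal muscle markers to 112, 71.4 and 295 in the combination, 111 in aPD-1 replicate 3 and 9.59 to 26.5 elsewhere. In bulk tissue, fewer cells of a type and less RNA per cell cannot be told apart.

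Levels were compared between genes as deposited TPM, which account for transcript length. The glycolytic enzymes led the order, and the 5 lowest genes were control points, an oxygen-sensing gene and hypoxia targets. Gapdh, which makes the first high-energy phosphate of glycolysis, averaged 5007 TPM (4205 to 5967), Eno1 (enolase) 1495, Aldoa (aldolase) 1309, Pkm (pyruvate kinase) 632, Pgk1 (phosphoglycerate kinase) 504, Ldha (lactate dehydrogenase) 483 and Tpi1 441. Only Ndrg1 (199 TPM) among the hypoxia targets came within the upper 9 places. At the low end stood Pdk1 (28.7), Car9 (17.4), Egln3 (12.5), Pfkfb4 (8.21) and Adm (4.20). Over the 10 libraries the TPM ranges of neighbours in this order overlapped, except that Gapdh (at least 4205) lay above Eno1 (at most 1892) and Aldoa (at least 1006) above Pkm (at most 858). Reads of 2 members can be split with near copies: Pgam1-ps2 held 32.7% to 36.7% of the Pgam1 count in 9 libraries and 48.7% in combination replicate 4, and Eno1b 6.78% to 8.88% of the Eno1 count, so Pgam1 and Eno1 are uncertain.

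Tumors given the same treatment differed in most of these genes at once. Within the YH29407 group, replicate 4 was the highest library for 30 of the 31 genes and replicate 3 the lowest for 27, against 31.4% and 38.6% of all genes tested. In the aPD-1 group replicate 4 lay above replicate 3 for 28 genes (47.9% of all genes), and in the control group replicate 5 lay above replicate 3 for 28 (48.8%). The exceptions were Pfkfb3, Pfkfb4 and Hif1a in the control group and Eno1, Ldha and Hif1a in the aPD-1 group. In the YH29407 group Pfkfb3 was highest in replicate 3, and Hk1, Pfkfb3, Pfkfb4 and Adm were lowest in replicate 1. The combination had no such order, since replicate 4 was the highest of its group for 13 genes and the lowest for 15. These are 41.9% and 48.4% of the members, near the 43.2% and 47.7% over all genes tested. Over all 10 libraries, control replicate 5 was the highest for 13 genes and YH29407 replicate 4 for 11. Combination replicate 4 was the lowest for 10, and combination replicate 3 and YH29407 replicate 3 for 8 each. Such counts over 10 libraries were not made for all genes.

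**Figure D1:**
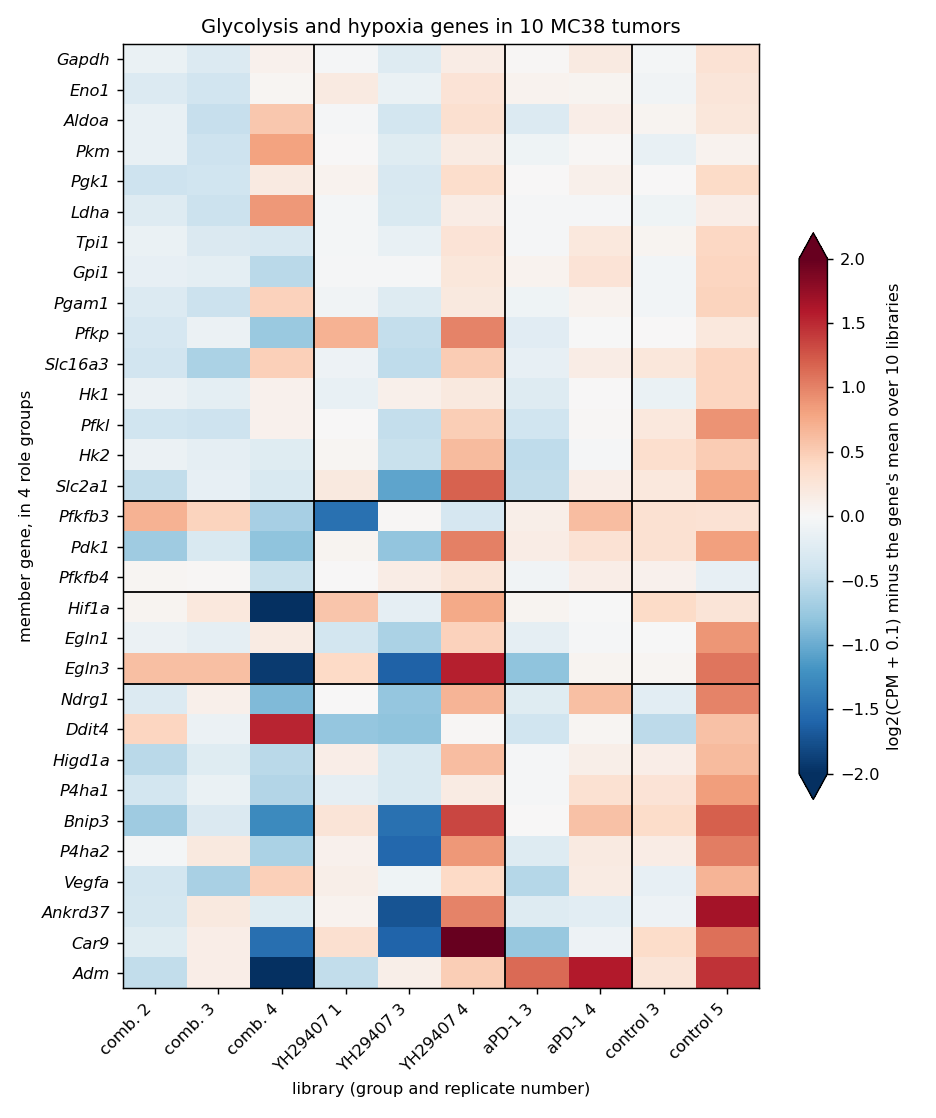
Each row is one of the 31 genes in 4 role groups and each column a library, with the 3 combination tumors at the left and the 2 control tumors at the right. Color is log2(CPM + 0.1) minus the gene's mean over the 10 libraries, on a scale that ends at 2 on either side, and the columns of YH29407 replicate 4 and control replicate 5 are red for most genes, whereas YH29407 replicate 3 is blue.

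Several hypoxia targets outside glycolysis showed this over a wide range. Values are given in the order of the replicate numbers. Car9, the cell-surface carbonic anhydrase IX, had 8.76, 11.4 and 3.56 CPM in the combination tumors, 12.9, 3.36 and 50.5 CPM in the YH29407 tumors, 6.09 and 9.61 CPM in the aPD-1 tumors and 13.4 and 22.3 CPM in the control tumors. Bnip3, a mitochondrial outer membrane protein of mitophagy, had 33.4, 44.97 and 22.6 CPM in the combination tumors, 65.5, 19.5 and 138 CPM with YH29407, 55.1 and 82.5 CPM with aPD-1 and 70.4 and 126 CPM in the control tumors. The lowest and the highest of all 10 libraries were both YH29407 tumors for both genes, 15.0-fold apart for Car9 and 7.09-fold apart for Bnip3, and the YH29407 range covered every other group. The combination tumors lay below both control tumors for Car9, and below the aPD-1 and the control tumors for Bnip3. Ndrg1, a stress-responsive gene, had 185, 240.2 and 122 CPM in the combination tumors, 227, 131 and 359 CPM with YH29407, 191 and 341 CPM with aPD-1 and 195 and 450.1 CPM in the control tumors. Vegfa, which encodes the vascular growth factor VEGF-A, had 70.2, 58.1 and 126 CPM in the combination tumors, 98.5, 85.3 and 119.9 CPM with YH29407, 60.9 and 102 CPM with aPD-1 and 81.0 and 145 CPM in the control tumors. For Ndrg1 and Vegfa all 4 groups overlapped.

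Adm, which encodes the vasodilator peptide adrenomedullin, was the least abundant of the 31. It had 1.19, 1.89 and 0 CPM in the combination tumors, 1.19, 1.88 and 2.45 CPM with YH29407, 3.89 and 5.37 CPM with aPD-1 and 2.09 and 4.87 CPM in the control tumors. No Adm read was counted in combination replicate 4, which allows up to 0.0539 CPM (3 counts, counting error only). The combination tumors lay below the aPD-1 tumors and below the control tumors for Adm. Ankrd37 ran from 4.96 CPM in YH29407 replicate 3 to 53.2 CPM in control replicate 5, and P4ha2, a subunit of collagen prolyl hydroxylase, from 25.6 to 156 CPM between the same libraries.

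**Figure D2:**
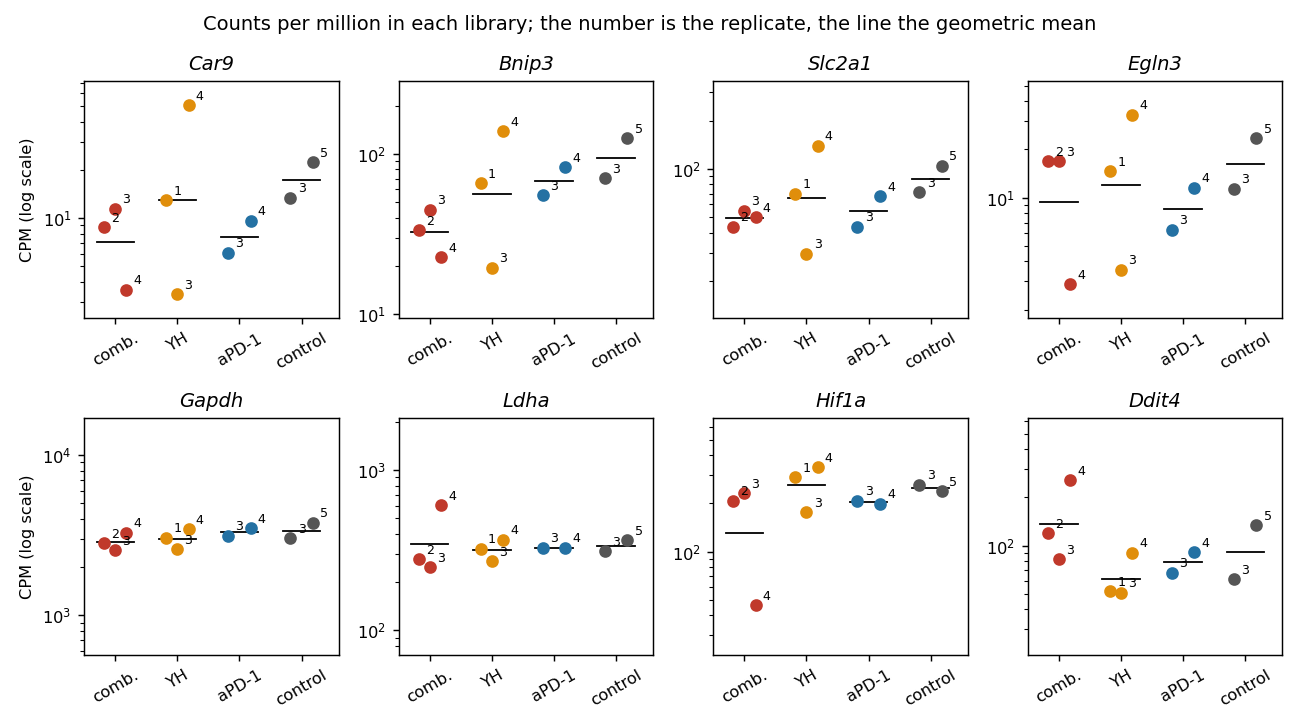
Points are CPM of 8 genes in each library on a log axis that spans the same fold in every panel, with the replicate number beside each point and the geometric mean of the group as a line. Car9, Bnip3, Slc2a1 and Egln3 spread widely within YH29407, Gapdh is nearly flat, and combination replicate 4 is high for Ldha (603 CPM) and Ddit4 (256 CPM) and low for Hif1a (46.1 CPM).

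Oxygen-sensing genes followed in part. Egln3, the HIF prolyl hydroxylase PHD3, had 16.8, 16.9 and 2.88 CPM in the combination tumors, 14.7, 3.55 and 32.9 CPM with YH29407, 6.31 and 11.5 CPM with aPD-1 and 11.4 and 23.5 CPM in the control tumors. The 2 lowest Egln3 libraries were combination replicate 4 and YH29407 replicate 3. Hif1a, whose protein is controlled mainly by its stability, had 207, 231 and 46.1 CPM in the combination tumors, 291, 177 and 335 CPM with YH29407, 208 and 199 CPM with aPD-1 and 261 and 239 CPM in the control tumors. Apart from combination replicate 4, Hif1a mRNA stayed within 177 to 335 CPM. Egln1, the HIF prolyl hydroxylase PHD2, ranged from 42.3 CPM in YH29407 replicate 3 to 122 CPM in control replicate 5.

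Glycolytic genes shared the order of the libraries within the single-treatment and control groups, over a narrower range. Slc2a1, the glucose transporter GLUT1, varied most among them, with 43.7, 54.9 and 49.95 CPM in the combination tumors, 70.0, 29.6 and 139.6 CPM with YH29407, 43.7 and 67.6 CPM with aPD-1 and 71.4 and 105 CPM in the control tumors. Hk2, the inducible hexokinase, had 153, 148 and 141 CPM in the combination tumors, 172, 122 and 257 CPM with YH29407, 117 and 165 CPM with aPD-1 and 211 and 236 CPM in the control tumors. For both genes the 3 combination tumors were close together, within the YH29407 range and below both control tumors. Gapdh had 2811, 2554 and 3275 CPM in the combination tumors, 3051, 2587 and 3444 CPM with YH29407, 3134 and 3506 CPM with aPD-1 and 3019.6 and 3791 CPM in the control tumors. Its 10 libraries lay within 1.48-fold, and every group overlapped every other for Gapdh.

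Pgk1, which makes the first ATP of glycolysis, had 293, 296 and 442 CPM in the combination tumors, 410.0, 310.3 and 496 CPM with YH29407, 392.04 and 415 CPM with aPD-1 and 392.2 and 508 CPM in the control tumors. Ldha, which makes lactate, had 277, 247 and 603 CPM in the combination tumors, 324, 269 and 367 CPM with YH29407, 328 and 327 CPM with aPD-1 and 312 and 365 CPM in the control tumors. Slc16a3, the lactate exporter MCT4, had 91.9, 77.5 and 166 CPM in the combination tumors, 112, 84.4 and 169.7 CPM with YH29407, 107 and 134 CPM with aPD-1 and 140.1 and 162 CPM in the control tumors. In these 3 genes combination replicate 4 was well above the other 2 combination tumors, which were among the lowest libraries.

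The control points did not move as one. Pfkfb3, which makes the sugar phosphate that activates phosphofructokinase, had 109, 92.2 and 42.9 CPM in the combination tumors, 24.0, 69.0 and 53.7 CPM with YH29407, 73.9 and 104 CPM with aPD-1 and 83.4 and 82.4 CPM in the control tumors. The 3 YH29407 tumors were all below both control tumors and below both aPD-1 tumors for Pfkfb3, and YH29407 replicate 3 was the highest of its group. Pdk1, the kinase that keeps pyruvate out of mitochondrial oxidation, had 35.2, 46.6 and 33.0 CPM in the combination tumors, 59.9, 33.2 and 116 CPM with YH29407, 64.0 and 70.1 CPM with aPD-1 and 71.5 and 102 CPM in the control tumors. Pfkfb4 stayed between 9.51 and 15.7 CPM.

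The spread between tumors of the same group differed by role. The SD of log2(CPM + 0.1) between libraries of a group, pooled over the groups, had a median of 0.735 over the 10 hypoxia targets outside glycolysis, 0.801 over the 3 oxygen-sensing genes, 0.562 over the 3 control points and 0.347 over the 15 glycolytic genes, beside 0.472 over all genes tested. Each gene was also placed among the 500 tested genes nearest in level. Of the hypoxia targets 8 of 10, and of the glycolytic genes 2 of 15, lay above percentile 75 of spread, and 8 of 10 and 10 of 15 lay above the median. Egln3 (SD 1.31) was at percentile 97.4, Hif1a (0.801) at 97.2, Bnip3 (0.918) at 97.0 and Car9 (1.26) at 96.0 of such genes. These SDs include combination replicate 4, the library that stood apart. Hif1a had 46.1 CPM there, against 207 and 231 CPM in the other combination tumors, and Egln3 had 2.88 CPM, against 16.8 and 16.9 CPM. The spread without that library was not computed. P4ha1 (0.269, percentile 44.6) and Higd1a (0.322, percentile 48.2) were the 2 hypoxia targets below the median of such genes, and Pfkfb4 was the steadiest for its level (0.199, percentile 12.8).

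**Figure D3:**
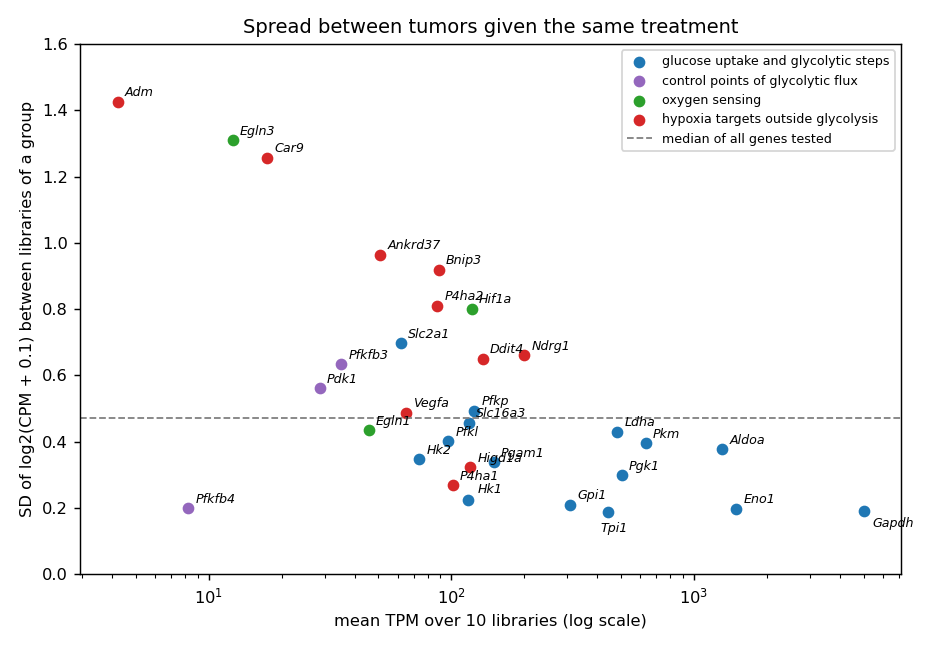
Each point is one of the 31 genes, with its mean TPM over the 10 libraries on a log axis and the SD of log2(CPM + 0.1) between libraries of a group on the vertical axis. Most hypoxia targets lie above the dashed median of all genes tested (0.472) and most glycolytic genes below it.

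Other cell markers were set beside this order. Endothelial markers summed to 340.4, 270.4 and 177 CPM in YH29407 replicates 1, 3 and 4, to 282 and 172 CPM in the aPD-1 tumors and to 183 and 143 CPM in control replicates 3 and 5, with 0 of the 10 markers at 0 in any of these libraries. In each of these groups the library with the highest glycolysis and hypoxia levels was also the one with the lowest endothelial sum. In the combination the role groups parted. The endothelial sums were 223, 319 and 126 CPM in replicates 2, 3 and 4. The median relative levels of the 31 genes (log2(CPM + 0.1) minus the gene's mean over the libraries) were close together, at -0.26, -0.19 and -0.30. For the glycolytic genes they were -0.26, -0.39 and 0.09, highest where the endothelial sum was lowest. For the hypoxia targets outside glycolysis they were -0.36, -0.0077 and -0.61, lowest in that same library. T cell markers summed to 12.0, 39.8 and 11.1 CPM in the YH29407 tumors, so that the library lowest in the glycolysis and hypoxia genes was the highest in T cell markers there, but to 25.8 and 26.9 CPM with aPD-1 and 20.7 and 17.1 CPM in the control tumors. Neutrophil markers were higher in control replicate 5 (465 CPM) than in control replicate 3 (173 CPM), whereas among YH29407 tumors they were highest in replicate 3 (27.3, 174 and 42.6 CPM). The part of any cell type in the order of the libraries was not tested.

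Combination replicate 4 separated genes of both roles. Its median relative level, meaning the median over genes of log2(CPM + 0.1) minus each gene's mean over the libraries, was 0.09 for the glycolytic genes and -0.61 for the hypoxia targets. In control replicate 5, where both were high, they were 0.41 and 1.01, and in YH29407 replicate 3, where both were low, -0.30 and -0.79. The medians also parted in combination replicate 3, in the reverse order, at -0.39 for the glycolytic genes and -0.0077 for the hypoxia targets. Aldoa (1232 CPM), Pkm (1119 CPM), Ldha (603 CPM), Pgam1 (159.6 CPM) and Ddit4 (256 CPM) were the highest of the 10 libraries there. Hif1a (46.1 CPM), Egln3 (2.88 CPM), Adm, Gpi1 (256 CPM), Tpi1 (239 CPM) and Pfkp (132 CPM) were among the 10 genes that were lowest there. Among all genes tested, too, this library was often an extreme of its group (highest for 43.2%, lowest for 47.7%). The same library had the highest muscle marker sum. The muscle enzyme genes Pgam2 and Ckm were higher in it (2.64 and 8.97 CPM) than in the other 9 (at most 0.317 and 1.76 CPM), but Pfkm (75.1 CPM) was within the range of the others (54.7 to 91.9 CPM), as was Eno3 (10.5 CPM, 9.65 to 18.3 CPM). The part of muscle tissue and of RNA quality in this library's values was not tested.

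**Figure D4:**
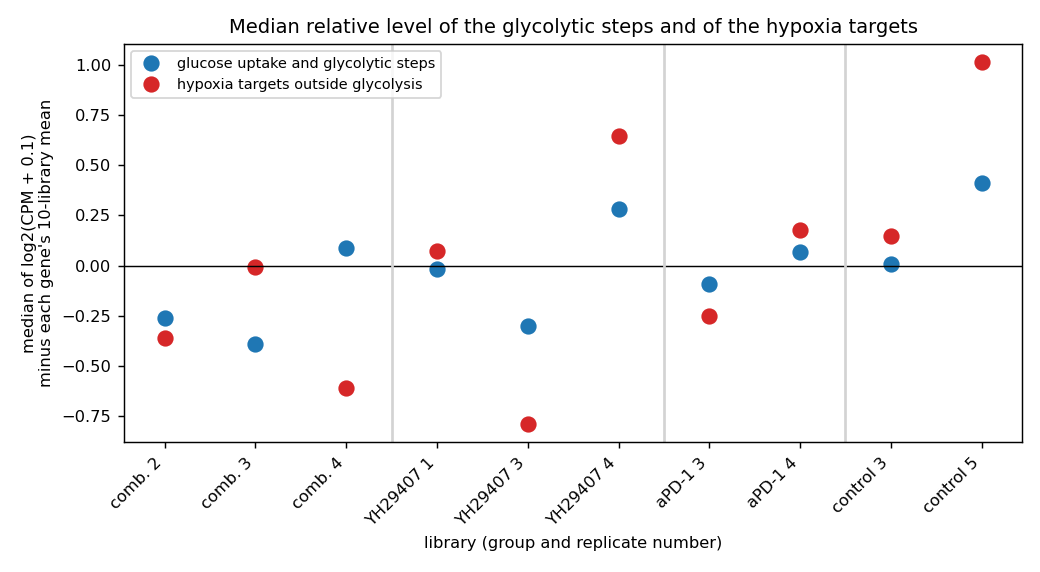
For each library the points give the median, over the 15 glycolytic genes and over the 10 hypoxia targets outside glycolysis, of log2(CPM + 0.1) minus each gene's mean over the 10 libraries. The hypoxia targets move further than the glycolytic genes in YH29407 and control tumors (0.65 in YH29407 replicate 4 and -0.79 in replicate 3), and the medians part in opposite directions in combination replicate 4. In combination replicate 3 the glycolytic median is the lower one (-0.39, against -0.0077).

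The combination was compared with YH29407 alone to see what adding aPD-1 does to these genes. Most were lower on average, but none passed the adjusted test. The log2 fold change was negative for 24 of the 31 genes, with a median of -0.27 beside 0.04 over all genes tested. Of the glycolytic genes 11 of 15 were negative (median -0.24), and of the hypoxia targets 9 of 10 (median -0.33). By edgeR's quasi-likelihood test with Benjamini-Hochberg adjustment over 21523 genes, 0 of the 31 passed at 0.05 (0% of all genes). At an unadjusted p under 0.05, 1 gene was higher (10.6% of all genes were) and 2 were lower (6.84%). DESeq2 called 0 members (6.27% of all genes), and limma on log2(FPKM + 1) and on log2(FPKM + 0.1) called 0 (0.0418% and 0.0883%).

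Ddit4, an inhibitor of mTORC1 that many stresses induce, was the gene higher in the combination, with 119.8, 82.3 and 256 CPM, against 51.9, 50.8 and 90.2 CPM with YH29407. The lowest combination tumor lay below the highest YH29407 tumor, so the groups overlapped. Its log2 fold change was 1.25 (SE 0.47, edgeR unadjusted p = 0.0269, adjusted p = 0.26), and 0.66 without combination replicate 4. Pfkp, the platelet phosphofructokinase, had 175, 204 and 132 CPM in the combination tumors and 359, 158 and 439 CPM with YH29407 (log2 fold change -0.90, SE 0.34, edgeR adjusted p = 0.26). Without YH29407 replicate 3 the Pfkp difference was -1.20 with an edgeR adjusted p of 0.0372, the only one of the 31 called in that fit, in which 431 genes were called in all, and without YH29407 replicate 4 it was -0.57. Higd1a, a mitochondrial protein of the hypoxia response, had 56.5, 69.8 and 56.6 CPM in the combination tumors and 90.3, 66.5 and 127 CPM with YH29407 (-0.63, SE 0.25, edgeR adjusted p = 0.267), and Pdk1 differed by -0.86 (SE 0.40, edgeR adjusted p = 0.303). Without YH29407 replicate 4 the differences of Higd1a and Pdk1 were -0.33 and -0.26.

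Only Gpi1 had all combination tumors below all YH29407 tumors (332, 324 and 256 CPM, against 367, 366 and 434 CPM), as did 9.1% of all genes, and no member had them all above (10.4%). The comparison rested on single libraries. Without YH29407 replicate 4, which holds the highest values, the median was 0.02 and 16 of the 31 genes were positive. Without YH29407 replicate 3 the median was -0.37 and 11 members lay wholly below, beside 20.9% of all genes. Without combination replicate 4 the median was -0.28 and 5 members lay wholly below (15.4% of all genes) and 1 above (19.4%). Markers of other tissues moved with this comparison: 12 of 12 keratinocyte (10 at an unadjusted p under 0.05), 12 of 12 skeletal muscle (7), 11 of 11 T cell (8) and 6 of 6 tested erythroid markers (2) and 13 of 13 mitochondrial mRNA genes (10) had positive fold changes. Their part in the differences of the 31 genes was not tested.

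Against control the combination tumors had lower average levels of nearly all these genes, again with none passing the adjusted edgeR test. The fold change was negative for 28 of the 31 genes, with a median of -0.50 (0.10 over all genes), and 13 of 15 glycolytic genes (median -0.39) and 9 of 10 hypoxia targets (median -0.88) were negative. EdgeR called 0 of the 31 after adjustment (0% of all genes). At an unadjusted p under 0.05, 7 genes were lower, namely P4ha1, Higd1a, Pdk1, Tpi1, Pfkl, Gpi1 and Bnip3, which is 7 of 31 where 3.12% of all genes were lower, and 0 were higher (6.98%). DESeq2 called 1 gene, P4ha1 (1.91% of all genes), and limma called 0 under either pseudocount (0.00929% with 1 and 0.00465% with 0.1). P4ha1, a catalytic subunit of collagen prolyl hydroxylase, had 124, 146 and 106 CPM in the combination tumors, against 193 and 285 CPM in the control tumors. Its log2 fold change was -0.93 (SE 0.24, edgeR adjusted p = 0.46) by edgeR and -0.90 (SE 0.27, DESeq2 adjusted p = 0.0474) by DESeq2. Higd1a had 90.4 and 127 CPM in the control tumors (-0.84, SE 0.28), Pdk1 71.5 and 102 CPM (-1.18, SE 0.44) and Tpi1, triose phosphate isomerase, 272, 244 and 239 CPM in the combination tumors, against 310.1 and 395 CPM in the control tumors (-0.49, SE 0.19, edgeR adjusted p = 0.46 for all 3).

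All combination tumors lay below both control tumors for 13 members, namely Slc2a1, Hk2, Gpi1, Pfkl, Pfkp, Tpi1, Pdk1, Hif1a, Car9, Adm, Bnip3, P4ha1 and Higd1a, beside 15.8% of all genes, and above both for 0 (15.6%). Without combination replicate 4 this held for 23 members (22.1% of all genes), and 1 lay above (24.5%), Pfkfb3. Control replicate 5, one of only 2 control tumors, decided much of the size. The median was -0.24 without it and -0.72 without control replicate 3. Without replicate 5, 14 members lay wholly below control replicate 3 (25.4% of all genes) and 1 above (23.8%), Ddit4. Skin, muscle and T cell markers were higher in the combination than in the control tumors: 12 of 12 keratinocyte, 12 of 12 skeletal muscle and 11 of 11 T cell markers had positive fold changes. So did 9 of 10 endothelial markers (3 at an unadjusted p under 0.05). T cell markers summed to 80.1, 88.5 and 29.7 CPM in the combination tumors and 20.7 and 17.1 CPM in the control tumors. The part of these marker lists in the lower levels of the 31 genes was not tested.

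**Figure D5:**
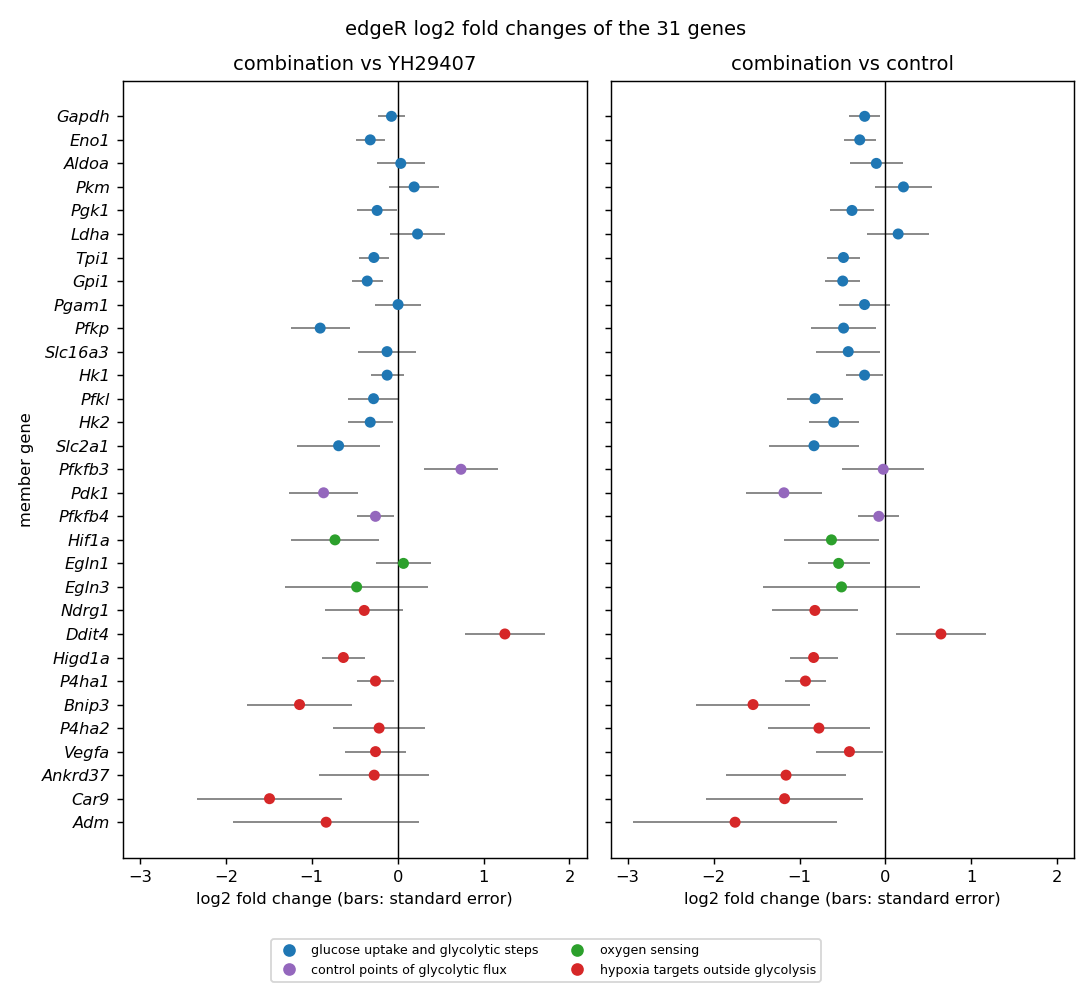
Points are edgeR log2 fold changes of the 31 genes for the combination against YH29407 (left) and against control (right), with standard errors as bars and colors for the role groups. Most points lie left of 0 (24 and 28 of 31), Ddit4 lies right of it in both panels, and no gene passed the adjusted threshold.

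Against aPD-1 alone, which asks what YH29407 adds, the combination tumors were lower for 20 of the 31 genes, with a median log2 fold change of -0.13 (0.10 over all genes) and 0 genes called by edgeR after adjustment (0%). At an unadjusted p under 0.05 only Gpi1, glucose phosphate isomerase, was lower (2.34% of all genes) and 0 were higher (5.76%). Its 332, 324 and 256 CPM in the combination tumors lay below the 391 and 448 CPM of the aPD-1 tumors, a log2 fold change of -0.46 (SE 0.20, edgeR adjusted p = 0.565). DESeq2 called 0 members (1.41% of all genes) and limma 0 (0.0186% with a pseudocount of 1 and 0% with 0.1). P4ha1 (-0.50, SE 0.24), Pdk1 (-0.81, SE 0.44) and Adm (-2.16, SE 1.19) had the next smallest p, each with an edgeR adjusted p of 0.565, and P4ha1 was at -0.31 without aPD-1 replicate 4. The combination lay wholly below aPD-1 for 8 members (15.6% of all genes) and wholly above for 0 (14.9%). The 8 were Gpi1, Tpi1, Eno1, Pdk1, Adm, Bnip3, P4ha1 and Higd1a. Without combination replicate 4 there were 14 below (23.4%) and 1 above (25.8%), Egln3. Without aPD-1 replicate 4 the median was 0.07.

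Against control, YH29407 alone gave lower average levels for most of the genes and no call. The median log2 fold change of the 31 genes was -0.20 (0.01 over all genes), with 25 negative. EdgeR called 0 after adjustment (0% of all genes), and at an unadjusted p under 0.05 it gave 1 lower (1.51% of all genes) and 0 higher (3.04%). DESeq2 called 0 (0.668%) and limma 0 (0.00465% and, with a pseudocount of 0.1, 0%). The lower gene was P4ha1, with 141, 129.5 and 179 CPM in the YH29407 tumors and 193 and 285 CPM in the control tumors (-0.67, SE 0.24, edgeR adjusted p = 1). Egln1 (-0.61, SE 0.36), Pfkl, the liver phosphofructokinase (-0.54, SE 0.33), and Pfkfb3 (-0.76, SE 0.47) came next, each with an edgeR adjusted p of 1. Without control replicate 5 the differences were -0.36 for P4ha1, -0.09 for Egln1 and -0.14 for Pfkl, and without YH29407 replicate 1 that of Pfkfb3 was -0.44. P4ha1 and Pfkfb3 were the 2 members wholly below (12.8% of all genes), and 0 were wholly above (12.4%). Without YH29407 replicate 4 the median was -0.62, and 17 members lay wholly below (17.1% of all genes) and 0 above (17.1%). Without control replicate 5 the median was 0.05, and 2 members lay wholly below (25.3%) and 2 above (22.8%), Gpi1 and Vegfa. Endothelial markers had positive fold changes for 10 of 10 genes (2 at an unadjusted p under 0.05) and erythroid markers negative ones for 6 of 6 tested (5), and their part in the differences was not tested. The positive endothelial fold changes were not particular to YH29407 alone. Against control, 9 of 10 were positive with aPD-1 alone (2) and 9 of 10 in the combination (3).

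Tumors given aPD-1 alone and control tumors likewise gave no call. With aPD-1 the median was -0.30 (0 over all genes), with 28 negative. EdgeR called 0 after adjustment (0% of all genes) and none at an unadjusted p under 0.05 in either direction (1.39% of all genes higher, 1.32% lower). DESeq2 called 0 (0.21%) and limma 0 (0.00465% and, with a pseudocount of 0.1, 0%). Pfkl had 114 and 153 CPM with aPD-1 and 175 and 283 CPM in the control tumors (-0.77, SE 0.37), and Hk2 (-0.67, SE 0.32), Ankrd37 (-1.28, SE 0.79) and P4ha1 (-0.43, SE 0.27) followed, each with an edgeR adjusted p of 1. Without control replicate 5 the differences were -0.38 for Pfkl, -0.13 for Ankrd37 and -0.13 for P4ha1, and without aPD-1 replicate 3 that of Hk2 was -0.44. Both aPD-1 tumors lay below both control tumors for 11 members (21% of all genes) and above for 0 (20.9%). Without control replicate 5 the median was -0.05, 11 members were below (37.4%) and 7 above (35.7%). The interaction, meaning the departure of the combination from the sum of both single effects on the log2 scale, had a median of 0.17 (0.04 over all genes) with 16 genes positive. EdgeR called 0 members (0%), with none at an unadjusted p under 0.05 (3.78% of all genes positive, 2.39% negative), DESeq2 0 (0.852%) and limma 0 under either pseudocount (0%). Ddit4 had the smallest p (1.55, SE 0.74, edgeR adjusted p = 0.837), ahead of Egln1 (0.68, SE 0.51), Pfkp (-0.68, SE 0.54) and Gpi1 (-0.32, SE 0.29). Without control replicate 5 Ddit4 was at 0.82 and Egln1 at 0.11, without YH29407 replicate 4 Pfkp was at -0.34, and without control replicate 3 Gpi1 was at -0.13. The comparisons with control share its 2 libraries, and those with the combination its 3.

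Other genes of the same pathways were read from textbook lists. Of 26 further glycolysis genes, 24 were tested, and 20 had a negative fold change between the combination and YH29407 (median -0.45), 6 of them at an unadjusted p under 0.05 and 1 of the positive ones. Of 30 further hypoxia genes 20 were negative (median -0.41), 4 at an unadjusted p under 0.05 and 1 of the positive ones, and of 8 gluconeogenesis genes 4 were tested and 3 were positive. EdgeR called 0 of all these after adjustment. Over all genes tested 47.7% were negative, and 6.84% were lower and 10.6% higher at an unadjusted p under 0.05. Against control, the combination had 18 of the 24 glycolysis genes (median -0.31) and 22 of the 30 hypoxia genes (median -0.46) negative. YH29407 alone had 10 of 24 (median 0.13) and 16 of 30 (median -0.0121) negative against control, and aPD-1 alone 12 of 24 (median 0.00400) and 16 of 30 (median -0.0299). The share of all genes tested that was negative against control was 45.1% for the combination, 48.1% for YH29407 and 49.9% for aPD-1. Tigar, a fructose bisphosphatase that lowers glycolytic flux, had 5.78, 6.45 and 7.17 CPM in the combination tumors, against 13.3, 10.5 and 13.8 CPM with YH29407, with no overlap (-0.95, SE 0.21, edgeR adjusted p = 0.202). Slc2a3, the glucose transporter GLUT3, which leukocytes and neurons use, had 3.64, 3.02 and 4.24 CPM in the combination tumors, against 0.677, 1.41 and 1.75 CPM with YH29407 (1.51, SE 0.38, edgeR adjusted p = 0.209). Both genes separated the groups in full, in opposite directions. Of all genes tested, 9.1% had the combination wholly below YH29407 and 10.4% wholly above. The 2 genes were picked by their small p in this same comparison, so the separation adds no support.

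Tfrc, the transferrin receptor, had 96.3, 153 and 87.3 CPM in the combination tumors, against 317, 165 and 433 CPM with YH29407 (-1.44, SE 0.37, edgeR adjusted p = 0.209). Stc2, a secreted glycoprotein of stress responses, had 5.30, 4.64 and 14.2 CPM, against 20.9, 13.3 and 20.5 CPM with YH29407 (-1.18, SE 0.42, edgeR adjusted p = 0.25). Tfrc separated the groups, with the combination wholly below as for 9.1% of all genes, and Stc2 did not. Both were likewise picked by their small p in this comparison. Pck2, the mitochondrial enzyme that makes phosphoenolpyruvate, had 62.0, 56.8 and 273 CPM in the combination tumors, against 54.8, 74.6 and 49.2 CPM with YH29407 (1.13, SE 0.56, edgeR adjusted p = 0.315), a difference carried by combination replicate 4, the library in which Ddit4 was also highest. Fbp2, the muscle fructose bisphosphatase, was at 0 to 0.288 CPM in every library.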

How the data were processed

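RNA from formalin-fixed, paraffin-embedded tumors was sequenced as pairs of 100 bp reads. Per the labels and the study's methods, a SureSelectXT RNA Direct kit was used; the labels also name a SMARTER mRNA kit. The authors trimmed the reads and used HISAT2 and StringTie with build mm10. They deposited 1 table with, per gene and library, whole-number read counts, FPKM and TPM. The counts deposited by the authors were used for tests, the TPM deposited by the authors for levels between genes, and the FPKM deposited by the authors for alternatives.

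Counts were fitted with edgeR 4.0.16 (TMM, filterByExpr by group, 1 term per group, 10 libraries, quasi-likelihood test, 6 contrasts), with Benjamini-Hochberg adjustment over 21523 genes and a threshold of 0.05. The biological coefficient of variation was 0.502. The script was tested on simulated data. Alternatives were RLE factors, no filter, the replicate block, DESeq2 1.42.0, limma 3.58.1 on log2(FPKM + 1) or log2(FPKM + 0.1), fits of the compared groups only, and leaving out each library. R 4.3.3, Python 3.11.15 and RefSeq promoters were used. The members and lists were chosen with earlier results of these data known. Fold changes are given for the 4 members with the smallest p in each contrast, and values per library for these and for members picked as well-known representatives of each role. From each further pathway list the 2 genes with the smallest p in the combination against YH29407 are named; other names were chosen after their values were seen. Total counts of 56170804 to 76287659 give a count of 0 an upper limit of 0.038 to 0.0539 CPM.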

Additional observations from a re-analysis of the deposited data

How the results depend on the processing

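Adding the replicate number as a block left 0 of the 31 genes called in every comparison, and the median log2 fold change was then -0.25 for the combination against YH29407, -0.34 against control and -0.09 against aPD-1, -0.22 for YH29407 and -0.19 for aPD-1 against control, and 0.03 for the interaction. Under this block the 7 genes lower at an unadjusted p in the combination against control became 0. The share of all genes at that p under the block is not given here, so the drop cannot be read as particular to these genes. Same-numbered libraries of different groups correlated at -0.0248 to 0.174 after group means were removed, and the labels do not say what a number stands for, so the numbers were not taken as pairs. DESeq2 called 1 gene (P4ha1) in the combination against control, which edgeR did not; the cause was not tested. Leaving out one library at a time, the number of genes called ranged from 0 to 1 in the combination against YH29407 and was 0 elsewhere. The median ranged from -0.37 to 0.0241 for the combination against YH29407, from -0.72 to -0.24 against control, from -0.32 to 0.07 against aPD-1, from -0.62 to 0.0542 for YH29407 against control, from -0.55 to -0.05 for aPD-1 against control and from -0.24 to 0.36 for the interaction. The 4 genes with the smallest p in each comparison kept their direction under each of the 17 alternatives, of which the fit on only the groups compared was not run for the interaction. Genes near 0 did not all do so: between the combination and YH29407, Ankrd37 was at -0.27 by edgeR and 0.0356 by limma on log2(FPKM + 1), and P4ha2 at -0.22 and 0.0253. Counts of genes at an unadjusted p were recomputed under the block after seeing the data, as were counts of groups without overlap when single libraries were left out. With 2 or 3 libraries a group, differences of the size seen here could not be separated from the spread between tumors, and missing the threshold does not show that levels were equal.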
